A study of Mus musculus with 6 samples.

Results

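The miR-99/100 and miR-125 families were followed in brown and subcutaneous fat of mice, as 9 mature arms picked by name from the 1251 arms in the deposited table: miR-99a-5p, miR-99b-5p, miR-99b-3p, miR-100-5p, miR-125a-5p, miR-125a-3p, miR-125b-5p, miR-125b-1-3p and miR-125b-2-3p. All 9 were above the floor of the table in all 6 libraries and all 9 passed the filter on low values. The mice were C57BL/6J, an inbred laboratory strain, 5 to 6 weeks old at the start, and were fed for 11 weeks on a high fat diet (fat 45%, protein 20% and carbohydrate 35% of energy), with a fast of 4 hours before collection. In both groups the food also carried 6.75% eicosapentaenoic acid (EPA), an omega-3 fatty acid, so the comparison is between tissues within EPA-fed mice. BAT_EPA holds 3 libraries from brown fat between the shoulder blades, which burns fuel for heat (numbered 3, 4 and 5 in the labels), and SAT_EPA holds 3 of inguinal subcutaneous fat, a white depot (numbered 1, 3 and 8). Whether a mouse gave both tissues is not stated in the labels, so p-values measure only the spread between these samples.

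MiRNAs are short RNAs that guide Argonaute proteins to messenger RNAs, and the bases from position 2 to position 8, the seed, do most of the target pairing. Each hairpin precursor yields a 5p and a 3p arm, of which usually 1 is kept as the guide and the other is mostly degraded. The miR-99/100 and miR-125 families sit with a let-7 gene in 3 duplicated clusters, an old arrangement in animal genomes; miR-125 is the relative of worm lin-4, a regulator of developmental timing. MiR-99/100 is known for repression of mTOR and of the insulin-like growth factor 1 receptor, and miR-125 for repression of Lin28, which blocks let-7 maturation.

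On GRCm38, the miR-99b/miR-125a cluster lies on the plus strand of chromosome 17. Its hairpins are Mir99b (chr17:17830188-17830257), Mirlet7e (chr17:17830352-17830444) and Mir125a (chr17:17830812-17830879), 692 bases from end to end, inside the protein-coding gene Spaca6. Mir99b and Mirlet7e are intronic there, and Mir125a overlaps an exon of at least 1 Spaca6 transcript. The miR-99a/miR-125b-2 cluster spans 47.4 kb of chromosome 16 on the plus strand, with Mir99a (chr16:77598936-77599000), Mirlet7c-1 (chr16:77599657-77599750) and Mir125b-2 (chr16:77646273-77646343) in introns of the non-coding host Mir99ahg. The miR-100/miR-125b-1 cluster spans 50.6 kb of chromosome 9 on the plus strand, with Mir100 (chr9:41531425-41531504), Mirlet7a-2 (chr9:41536716-41536811) and Mir125b-1 (chr9:41581926-41582002) in introns of the non-coding gene 3110039I08Rik. All of them also lie in introns of the non-coding gene Gm49317, and Mir125b-1 overlaps an exon of at least 1 Gm28119 transcript.

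The mature sequences show which members share a seed and which can be told apart by reads. They are given 5′ to 3′ from RefSeq (GRCm38.p6), with the seed in capitals. The guide arms of miR-99/100 share the seed ACCCGUA:
miR-99b-5p: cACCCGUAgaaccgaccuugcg
miR-99a-5p: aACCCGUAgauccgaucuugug
miR-100-5p: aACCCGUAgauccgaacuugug
MiR-99a-5p and miR-100-5p differ at 1 of 22 positions (U16A, counted from the 5′ end with the miR-99a-5p base first), and miR-99b-5p differs from each of them at 4. A read with an error at that position could be counted for the wrong gene of the pair. The guide arms of miR-125 share the seed CCCUGAG, also found in miR-351-5p of chromosome X:
miR-125a-5p: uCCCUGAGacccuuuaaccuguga
miR-125b-5p: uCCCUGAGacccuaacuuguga
miR-351-5p: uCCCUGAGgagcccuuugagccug
MiR-125a-5p and miR-125b-5p are identical over their first 13 bases. MiR-125b-5p has the same sequence from chromosomes 9 and 16, so its value cannot be divided between the 2 loci. The 3p arms, in contrast, differ between those loci and mark each of them. Their seeds are all different, apart from that of miR-99b-3p, which miR-99a-3p of the paralogous hairpin shares:
miR-99b-3p: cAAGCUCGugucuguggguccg
miR-99a-3p: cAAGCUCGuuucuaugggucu
miR-125a-3p: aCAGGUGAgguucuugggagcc
miR-125b-1-3p: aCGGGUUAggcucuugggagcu
miR-125b-2-3p: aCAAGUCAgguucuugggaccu

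Marker miRNAs of each depot were higher in the libraries labelled with it. The summed share of 4 brown fat miRNAs, out of all values above the floor, was 19.1% to 19.7% per brown library and 1.69% to 2.08% per subcutaneous library, and that of 3 white fat miRNAs was 0.484% to 0.654% and 3.96% to 5.18%, with miR-196a-5p and miR-335-5p at the floor in all brown libraries. Stroma and smooth muscle (5 miRNAs) summed to 1.06% to 1.28% in brown and 3.77% to 4.73% in subcutaneous fat, endothelium (2) to 0.134% to 0.158% and 0.412% to 0.524%, leukocytes (4, with miR-142-3p at the floor throughout) to 1.39% to 1.89% and 0.598% to 0.835%, and red cells (3, with miR-144-3p at the floor throughout) to 8.72% to 8.73% and 0.811% to 1.51%. The higher sums of leukocytes and red cells in brown fat came from miR-150-5p and miR-486-5p, while their other measured markers, miR-223-3p (-5.51, brown minus subcutaneous, log2), miR-142-5p (-2.08) and miR-451a (-1.49), were lower in brown fat (limma). The liver miRNA miR-122-5p was at the floor in every subcutaneous library and held 0.00160% to 0.0414% in brown fat, and both nerve miRNAs were at the floor in all 6 libraries. Skeletal muscle (3 miRNAs) summed to 0.0526% to 6.27% in brown and 0.0706% to 5.10% in subcutaneous fat. Brown library 4 and subcutaneous library 3, called the miR-133a-rich libraries here, stood apart in the muscle miRNA miR-133a-3p, at 17.20 and 16.90 on the log2 scale against 10.32 to 13.32 in the other 4, with miR-1a-3p at the floor in all 6 and miR-206-3p above it only in brown library 4. The 2 tissues also differed in how the values varied with GC content. Per 10 percentage points of GC in the mature sequence, a library's deviation from each miRNA's mean over the 6 libraries changed by 0.61 to 0.70 log2 units in brown and by -0.79 to -0.47 in subcutaneous fat. These slopes cancel over the 6 libraries by construction. They show a difference between the tissues, not a rising or falling trend in either tissue alone. The part of these cell type markers in the differences below was not tested. Where leaving out the 2 libraries or removing the GC trend changed a call or a direction, or moved a value by over 1.5 times, that value stands beside the result.

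All 9 members differed between the tissues at an adjusted p of 0.05 (limma), 4 higher and 5 lower in brown fat. Over all 269 tested miRNAs, 69.1% were called, 33.5% higher and 35.7% lower in brown fat, so being called sets the members little apart from other miRNAs. The 3 values of brown fat and the 3 of subcutaneous fat did not overlap for any of the 9, which held for 74% of all tested miRNAs. The 4 higher arms were miR-99b-5p, miR-125a-5p, miR-125a-3p and miR-125b-5p, and the 5 lower were miR-99a-5p, miR-100-5p, miR-99b-3p, miR-125b-1-3p and miR-125b-2-3p. The median difference, brown minus subcutaneous, was -1.30 on the log2 scale for the members and -0.45 for all tested miRNAs. Relative to that overall median, the 4 higher arms lay 0.91 to 1.73 above it and the 5 lower arms -2.06 to -0.85 from it. In bulk tissue, fewer cells of a type and less of a miRNA per cell cannot be told apart. With each library's GC trend removed, 2 members were called higher and 5 lower, and leaving out the 2 miR-133a-rich libraries also gave 2 and 5.

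**Figure D1:**
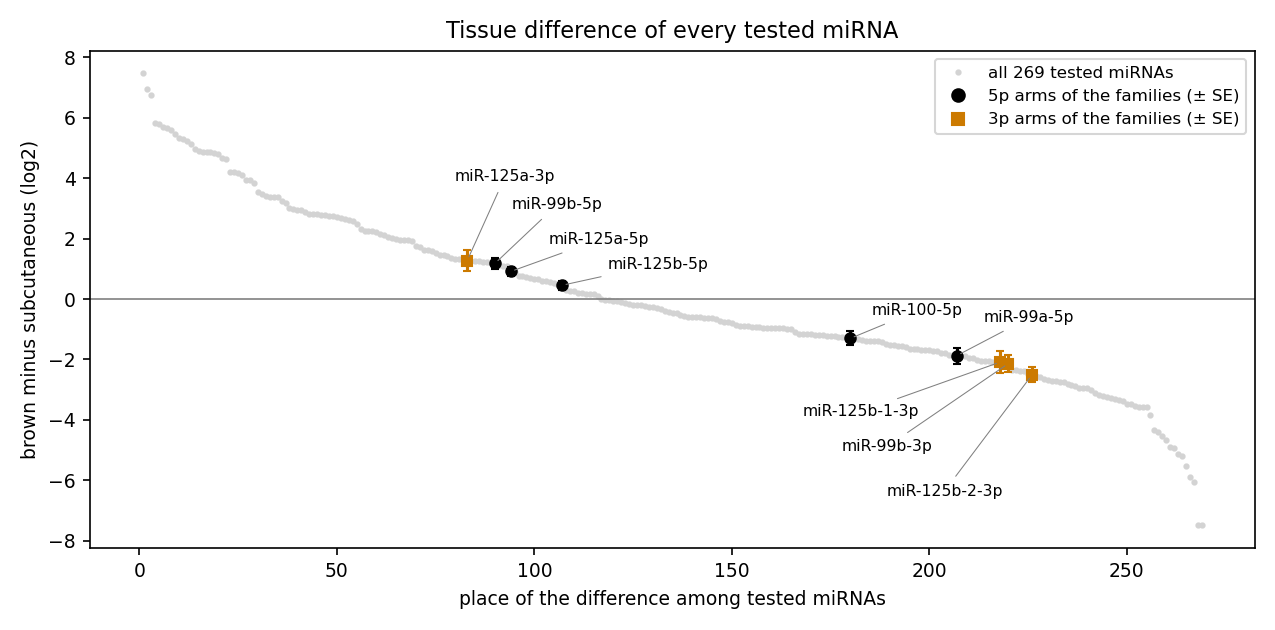
Tissue difference of each of the 269 tested miRNAs (y axis, brown minus subcutaneous, log2), ordered from highest to lowest along the x axis. Circles are 5p arms and squares 3p arms of the families, with bars for the SE of the fit; 4 members lie above 0 and 5 below, at places 83 to 226 of the order.

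The members ranked from 4 to 228 where 235 to 273 arms were above the floor per library. MiR-125a-5p and miR-99b-5p were among the most abundant miRNAs of both tissues, ranked 4 to 5 and 6 to 7 in brown fat and 8 to 10 and 12 to 16 in subcutaneous fat. MiR-125b-5p followed at ranks 19 to 21 and 23 to 27. MiR-100-5p was ranked 66 to 79 in brown and 45 to 53 in subcutaneous fat, and miR-99a-5p 94 to 109 and 56 to 69. The 4 3p arms were ranked between 157 and 228 in brown fat and between 100 and 220 in subcutaneous fat. Levels of different miRNAs also depend on how well each sequence is ligated and amplified, which these values do not correct.

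**Figure D2:**
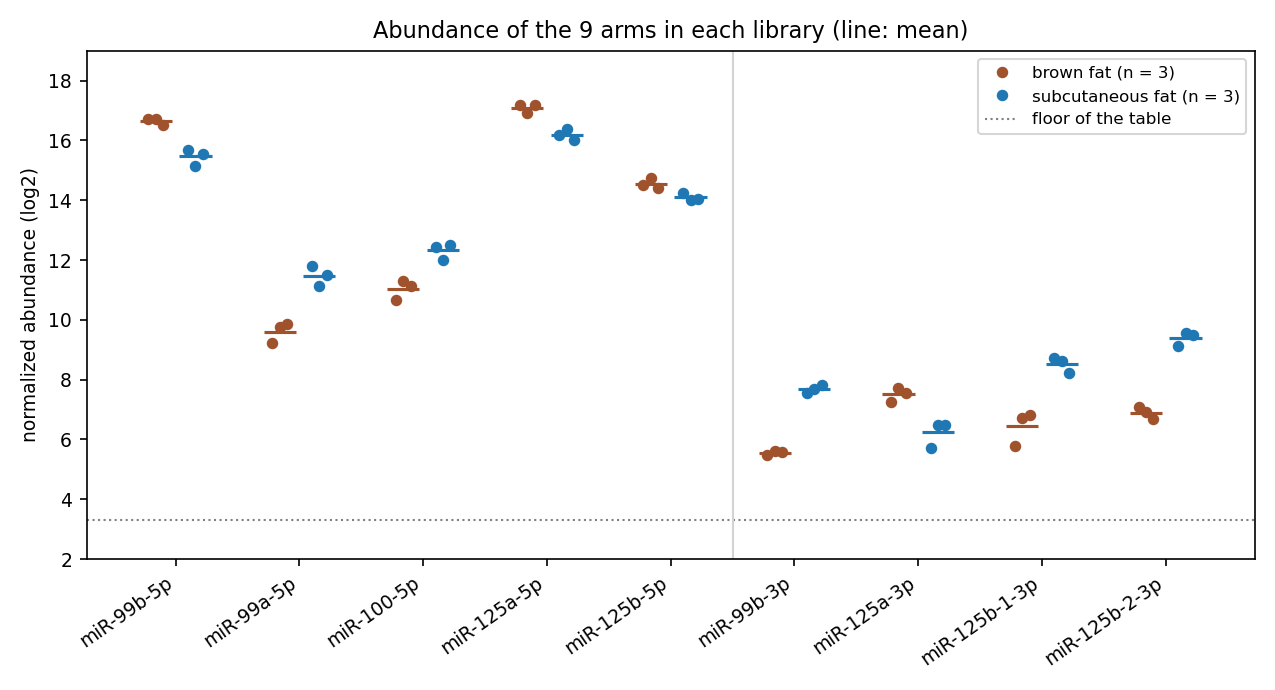
Normalized abundance (y axis, log2) of the 9 arms in each library, with brown and subcutaneous fat side by side, points for libraries and lines for means of 3; the dotted line is the floor of the table at 3.32. The tissues do not overlap for any arm, and the 5p arms of miR-99b and miR-125a stand highest.

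Among the guide arms, those of the miR-99b/miR-125a cluster had the larger increases in brown fat. MiR-99b-5p stood at 16.72, 16.72 and 16.51 in brown libraries 3, 4 and 5 and at 15.70, 15.16 and 15.56 in subcutaneous libraries 1, 3 and 8 (log2 levels). All brown libraries were above all subcutaneous ones. The difference was 1.18 ± 0.17 (SE, n = 3 per tissue, limma adjusted p = 0.0012), or 2.26-fold. MiR-99b-5p has a GC content of 63.6%, against a median of 50% over tested miRNAs with a sequence. With the GC trend of each library removed, its direction turned, to -0.27 ± 0.26 (SE) with a limma adjusted p of 0.394, the highest of a range from 4.3e-04 over all alternatives. MiR-125a-5p, the neighbour in the same cluster, stood at 17.20, 16.90 and 17.20 in brown fat and 16.18, 16.38 and 16.02 in subcutaneous fat. Again the tissues were fully separated, with a difference of 0.91 ± 0.14 (SE, limma adjusted p = 0.0018), or 1.88-fold. Its GC content is 50%, and with the GC trend removed the difference was 1.25.

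MiR-125b-5p, the product of both other clusters, had the smallest difference of the 9. It stood at 14.52, 14.75 and 14.41 in brown libraries 3, 4 and 5 and at 14.24, 14.02 and 14.05 in subcutaneous libraries 1, 3 and 8. The lowest brown library lay just above the highest subcutaneous one. The difference was 0.45 ± 0.14 (SE, limma adjusted p = 0.026), or 1.37-fold. It was not past the threshold without brown library 4 (0.36, limma adjusted p = 0.054), subcutaneous library 3 (0.41, 0.066) or subcutaneous library 8 (0.43, 0.079). Without the 2 miR-133a-rich libraries it was 0.32 with a limma adjusted p of 0.113, within a range of 0.0018 to 0.121 over all alternatives. With the GC trend removed it was 0.79, and with median-of-ratios scaling 0.87. MiR-351-5p, an X-linked arm with the same seed that lies outside the clusters, was 1.66-fold higher in brown fat (0.73 ± 0.15 SE, limma adjusted p = 0.0051). Its GC content is 62.5%, and with the GC trend removed its direction turned, to -0.56 ± 0.13 (SE, limma adjusted p = 0.0088). MiR-6367 and miR-6394, which also carry this seed, were listed at the floor in all 6 libraries.

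The miR-99 guide arms of the other clusters were lower in brown fat, opposite to miR-99b-5p as deposited (not with the GC trend removed), though all 3 share a seed. MiR-99a-5p stood at 9.22, 9.76 and 9.85 in brown fat and 11.81, 11.12 and 11.51 in subcutaneous fat. Every subcutaneous library was above every brown one, and the difference was -1.87 ± 0.26 (SE, limma adjusted p = 0.0012), or 3.65-fold higher in subcutaneous fat. MiR-100-5p stood at 10.65, 11.29 and 11.12 in brown fat and 12.45, 12.00 and 12.50 in subcutaneous fat. It too was separated, at -1.30 ± 0.23 (SE, limma adjusted p = 0.0030), or 2.47-fold higher in subcutaneous fat. Subcutaneous library 3 was the lowest of its tissue for both, and brown library 3 the lowest of brown fat. With median-of-ratios scaling, which brought the median of all tested miRNAs to -0.04, the difference of miR-100-5p was -0.88 and still past the threshold (limma adjusted p = 0.012, range 0.0024 to 0.016 over all alternatives).

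The 3p arms, normally the discarded strand, were far less abundant. The 4 listed here summed to 0.0167% ± 0.0021 (SD, n = 3) of a brown library and 0.0540% ± 0.0047 of a subcutaneous one, where all 9 members summed to 11.3% ± 0.48 and 6.16% ± 0.33. These sums were not computed with the GC trend removed. MiR-99b-3p stood at 5.49, 5.60 and 5.60 in brown fat and 7.55, 7.70 and 7.83 in subcutaneous fat. Its values in brown libraries 3, 4 and 5 were held by 15, 17 and 8 arms, itself included. Their narrow spread need not measure agreement between samples. MiR-99b-3p was 4.39-fold higher in subcutaneous fat (-2.13 ± 0.28 SE, limma adjusted p = 8.0e-04), while the 5p arm of the same hairpin was higher in brown fat. Differences of values this near the floor would understate a change if the floor was a constant added to each value, which is not known. With 40 added to the linear values the difference was -1.50, and with the GC trend removed it was -3.58.

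MiR-125a-3p was the only 3p member higher in brown fat. It stood at 7.24, 7.71 and 7.57 in brown libraries 3, 4 and 5 and at 5.72, 6.49 and 6.49 in subcutaneous libraries 1, 3 and 8, with subcutaneous library 1 lowest. The difference was 1.27 ± 0.34 (SE, limma adjusted p = 0.015), or 2.41-fold. It was not past the threshold without brown library 5 (1.24, limma adjusted p = 0.051) or without the 2 miR-133a-rich libraries (1.30, 0.066). Its GC content is 59.1%, and with the GC trend removed the difference was 0.42 with a limma adjusted p of 0.291, the highest of a range from 0.0045 over all alternatives.

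The 3p arms of the miR-125b hairpins can be assigned by sequence to the single loci that miR-125b-5p cannot separate, and both were lower in brown fat. Whether their levels follow the output of those loci was not tested. MiR-125b-1-3p, from chromosome 9, stood at 5.77, 6.71 and 6.83 in brown fat and 8.73, 8.63 and 8.21 in subcutaneous fat, with brown library 3 low. Its difference was -2.08 ± 0.37 (SE, limma adjusted p = 0.0028), or 4.24-fold higher in subcutaneous fat, and -2.93 with the GC trend removed. MiR-125b-2-3p, from chromosome 16, stood at 7.09, 6.90 and 6.68 in brown fat and 9.14, 9.57 and 9.50 in subcutaneous fat. Its difference of -2.51 ± 0.25 (SE, limma adjusted p = 2.0e-04), or 5.70-fold, was the largest of the 9. Their shared guide arm miR-125b-5p differed in the other direction.

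The let-7 neighbours and opposite arms, listed for the clusters, give the setting of these values. Of 8 such arms, 5 were tested and 4 of these were lower in brown fat (limma, against 35.7% of all tested miRNAs), while 3 (miR-100-3p, let-7c-1-3p and let-7a-2-3p) were listed at the floor in all 6 libraries. Let-7e-5p, whose hairpin lies between those of miR-99b and miR-125a, stood at 10.99, 10.99 and 10.70 in brown fat and 13.32, 13.69 and 13.56 in subcutaneous fat. It was 6.19-fold higher in subcutaneous fat (-2.63 ± 0.17 SE, limma adjusted p = 4.6e-05), against the direction of both guide arms that flank it in the deposited values. It was -1.11 ± 0.21 (SE, limma adjusted p = 0.0040) with the GC trend removed, the same direction as miR-99b-5p then had. Its opposite arm let-7e-3p stood at 7.26, 7.44 and 7.40 in brown and 5.72, 6.71 and 6.98 in subcutaneous fat, a difference of 0.90 ± 0.40 (SE, limma adjusted p = 0.084) that was not past the threshold. It was past it with median-of-ratios scaling (1.31, limma adjusted p = 0.023), the lowest p of its alternatives, which reached 0.209. So within 692 bases of chromosome 17, 3 of the 6 arms were called higher in brown fat and 2 lower, beside 33.5% and 35.7% of all tested miRNAs. Of the 3 higher calls, those of miR-99b-5p and miR-125a-3p were lost with the GC trend removed. Let-7c-5p and let-7a-5p, each also made from other loci, were lower in brown fat, with differences of -2.75 and -2.70; all subcutaneous libraries held the same value of each (18.67, the highest in the table, and 17.77), which makes their errors too small. These differences were -1.24 and -0.59 with the GC trend removed. MiR-99a-3p was at the floor in all brown libraries and at 6.48, 5.00 and 6.49 in subcutaneous fat, the same direction as miR-99a-5p.

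**Figure D3:**
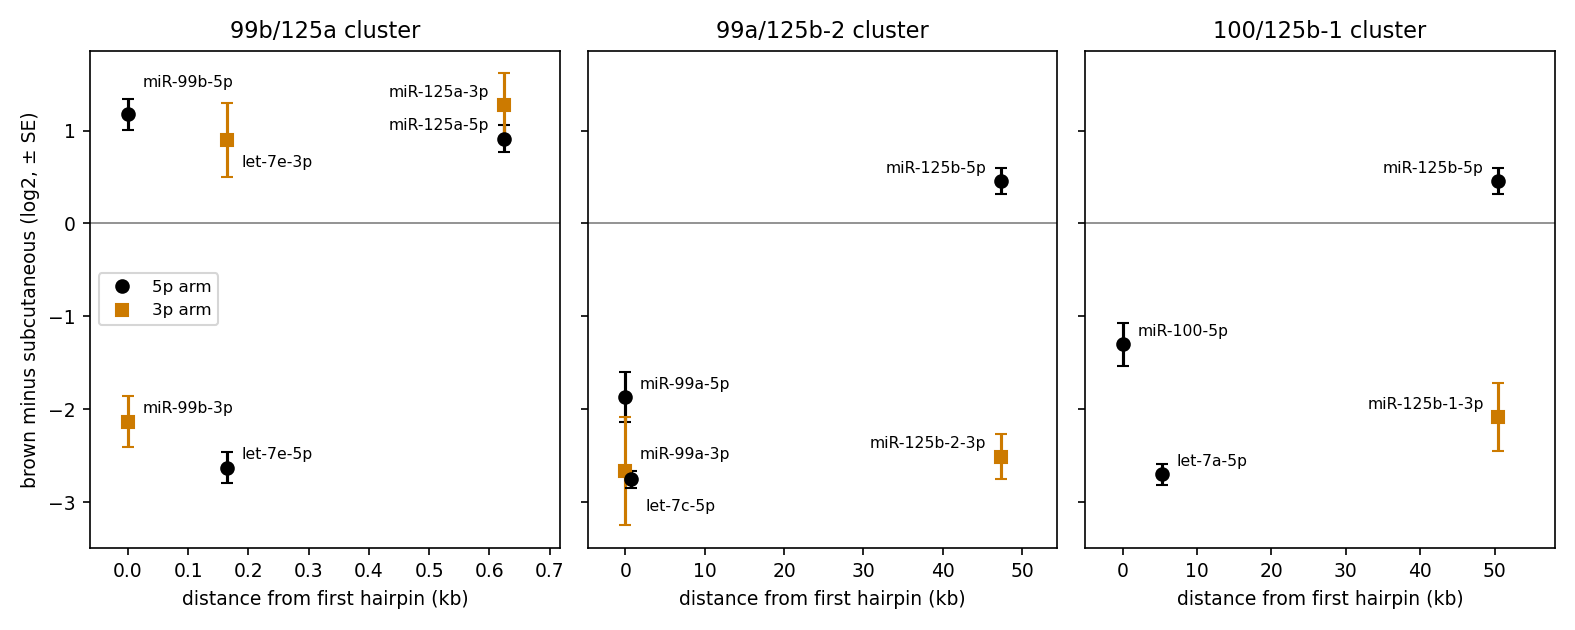
Difference between the tissues (y axis, brown minus subcutaneous, log2, with the SE of the fit) for each tested arm, placed by the distance in kb of its hairpin from the first hairpin of the cluster (x axis, a separate scale in each panel). MiR-125b-5p is drawn at both of its loci with the same value; in the miR-99b/miR-125a cluster the arms lie on both sides of 0, and in the other clusters every arm but miR-125b-5p lies below 0.

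Ratios within a library set members against each other, although values that follow the rank in a library also depend on the miRNAs ranked between them. For 15 such ratios and 2 shares, 17 comparisons in all, exact two-sided permutation tests were run; with 3 libraries against 3 their smallest possible p is 0.10, so none can pass 0.05. In 12 of the 17 the tissues did not overlap (exact p = 0.10, adjusted p = 0.142 each), and in 5 they did. The separation was fixed in advance for the miR-99b-5p share and for each separated ratio with miR-99b-5p or miR-125b-5p. There an arm with all brown values above the subcutaneous ones was set against arms with all brown values below them. Those p-values add nothing to the differences of the single arms. Of the 12, only miR-99a-5p to miR-100-5p, miR-99a-5p to let-7c-5p and miR-100-5p to let-7a-5p could have overlapped. Among the paralogs, the log2 ratio of miR-99b-5p to miR-99a-5p had a mean of 7.04 ± 0.42 (SD, n = 3) over brown libraries and of 3.99 ± 0.09 over subcutaneous ones. The spread over subcutaneous libraries was narrow, 3.89 to 4.04, and the difference of 3.04 corresponds to 8.25-fold. The ratio of miR-99b-5p to miR-100-5p was 5.63 ± 0.38 and 3.15 ± 0.10, a 5.57-fold difference. With the GC trend removed these 2 differences were 1.27 and 0.70, still with no overlap between the tissues (exact permutation p = 0.10). MiR-99a-5p and miR-100-5p, which have equal GC content, also changed against each other, from -1.41 ± 0.13 in brown to -0.84 ± 0.18 in subcutaneous fat.

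As a share of the summed miR-99/100 guide arms, miR-99b-5p made up 98.0%, 97.0% and 96.8% in brown libraries 3, 4 and 5. In subcutaneous libraries 1, 3 and 8 it made up 85.3%, 85.3% and 84.7%. The chromosome 17 paralog thus held most of the family's summed value in both tissues, and the shares did not overlap. That lack of overlap follows from the separate values of miR-99b-5p, higher in brown fat, and of miR-99a-5p and miR-100-5p, lower there. The summed family held 4.40% ± 0.34 (SD, n = 3) of a brown library and 2.25% ± 0.41 of a subcutaneous one. The family sums and shares given here were not computed with the GC trend removed, where the miR-99b-5p difference was -0.27 (log2). MiR-125a-5p made up 86.5%, 81.7% and 87.4% of the miR-125 guide arms in brown fat and 79.3%, 83.7% and 79.6% in subcutaneous fat. Here the tissues overlapped, since brown library 4 lay below subcutaneous library 3 (exact permutation p = 0.20, adjusted p = 0.243); these are the 2 miR-133a-rich libraries, and without them the difference between the tissue means was 7.51 percentage points instead of 4.33, and that between the log2 ratios of miR-125a-5p to miR-125b-5p was 0.79 instead of 0.46. The summed miR-125 guide arms held 6.88% ± 0.55 of a brown library and 3.86% ± 0.38 of a subcutaneous one.

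Between arms of the same hairpin, the balance was fully separated by tissue for miR-99b and overlapped for miR-125a. The arms of miR-99b differed between the tissues in opposite directions, and those of miR-125a in the same direction. The log2 ratio of miR-99b-5p to miR-99b-3p was 11.23, 11.12 and 10.91 in brown libraries 3, 4 and 5 and 8.14, 7.46 and 7.72 in subcutaneous libraries 1, 3 and 8. The lowest brown library exceeded the highest subcutaneous one by far more than the range within either tissue. Tied values of miR-99b-3p enter the brown range, which need not measure agreement between samples. The difference of 3.31 corresponds to 9.92-fold. Its exact permutation p of 0.10, the smallest possible, was fixed in advance by the opposite directions of the single arms and adds nothing to them. Both arms have a GC content of 63.6%, so the difference was also 3.31 with the GC trend removed; with 40 added to the linear values it was 2.68. The ratio of miR-125a-5p to miR-125a-3p was 9.96, 9.19 and 9.63 in brown fat and 10.46, 9.89 and 9.52 in subcutaneous fat, with overlapping tissues and a difference of -0.36 (exact permutation p = 0.50). With the GC trend removed that difference was 0.82, with no overlap (exact permutation p = 0.10). For miR-125b-5p, the ratio to miR-125b-1-3p had means of 8.12 ± 0.59 (SD, n = 3) for brown and 5.58 ± 0.24 for subcutaneous fat, and the ratio to miR-125b-2-3p was 7.67 ± 0.21 and 4.70 ± 0.35. These were 5.81-fold and 7.81-fold apart. The first difference went from 2.54 to 3.72 with the GC trend removed, and the second pair has equal GC content. The ratio between the 3p arms of the 2 miR-125b loci was -0.45 ± 0.77 in brown and -0.88 ± 0.45 in subcutaneous fat, which overlapped (difference 0.43, exact permutation p = 0.50). That difference turned to -0.76 with the GC trend removed.

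Between neighbours of a cluster, the balance of miR-125a-5p and miR-99b-5p overlapped between tissues. Their log2 ratio was 0.48, 0.19 and 0.69 in brown fat and 0.48, 1.22 and 0.46 in subcutaneous fat, an overlap with subcutaneous library 3 high (difference -0.26, exact permutation p = 0.60). The sign of that small difference turned without the 2 miR-133a-rich libraries (0.12) and with the GC trend removed (1.51), where the tissues no longer overlapped (exact permutation p = 0.10). MiR-125b-5p did not follow its neighbours. Its ratio to miR-99a-5p was 4.95 ± 0.37 in brown and 2.62 ± 0.24 in subcutaneous fat, and its ratio to miR-100-5p was 3.54 ± 0.30 and 1.78 ± 0.23, with no overlap in either. Since all 3 arms have a GC content of 50%, both differences, 2.32 and 1.76, were the same with the GC trend removed. MiR-99b-5p against let-7e-5p, 164 bases apart by hairpin start, had the largest shift of all ratios: 5.75 ± 0.04 in brown and 1.95 ± 0.45 in subcutaneous fat, a 14.0-fold difference that fell to 0.84 on the log2 scale with the GC trend removed (exact permutation p = 0.20). The ratios of miR-99a-5p to let-7c-5p and of miR-100-5p to let-7a-5p were higher in brown fat by 0.89 and 1.40, and with the GC trend removed the differences were -0.30 and -0.38.

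**Figure D4:**
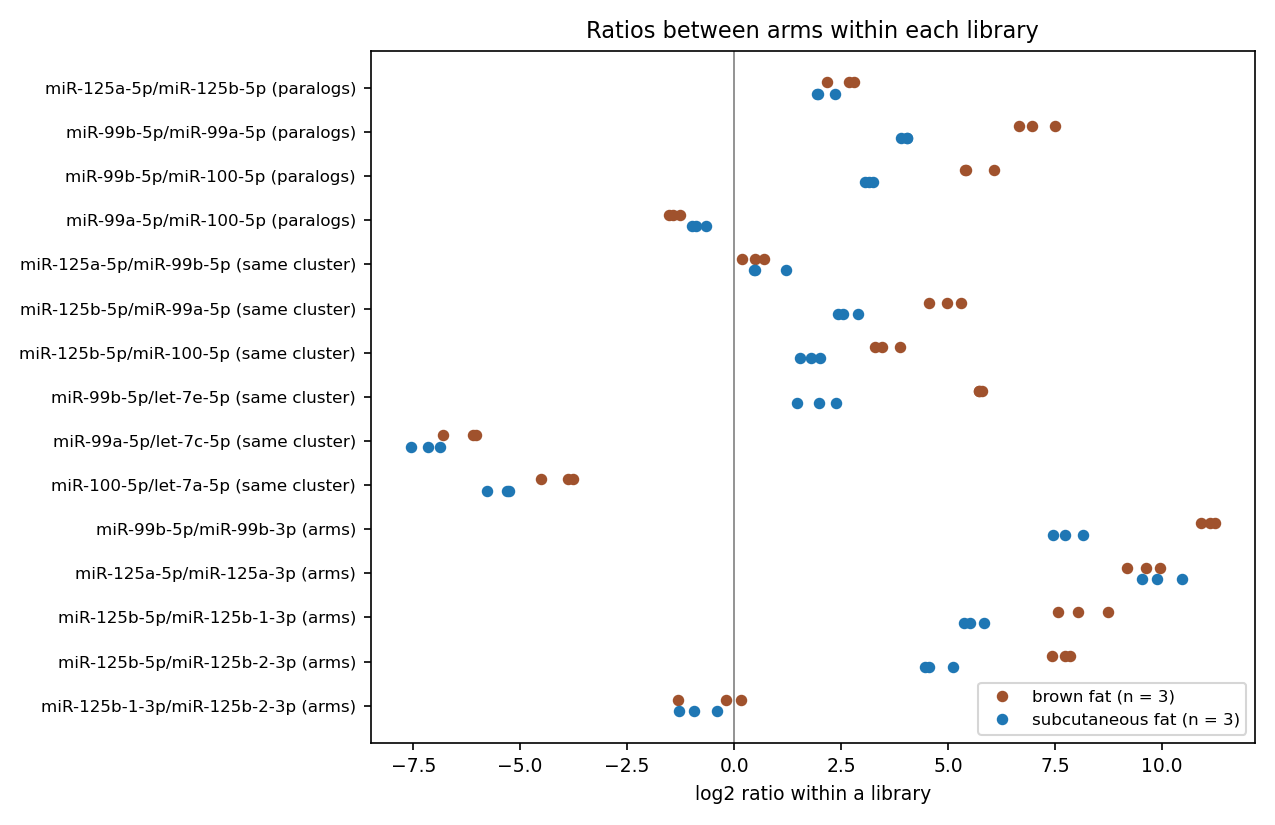
The 15 log2 ratios between arms (x axis) in each library, with brown libraries above and subcutaneous libraries below on each line; points are single libraries. The tissues overlap for miR-125a-5p against miR-125b-5p, miR-99b-5p and miR-125a-3p and for the 3p arms of the miR-125b loci, and are separated in the other 11. Separation was fixed in advance where the paired arms differed between the tissues in opposite directions.

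The patterns most like each member among tested miRNAs outside the families were found by Euclidean distance over the 6 libraries, after each miRNA was centred on its mean. The closest match of all was miR-143-3p for miR-99b-3p, at a distance of 0.14 log2 units, with tissue differences of -2.07 and -2.13. MiR-125b-2-3p was nearest to let-7e-5p (0.22), miR-125a-5p to miR-652-3p (0.22), miR-99a-5p to miR-24-3p (0.24) and miR-100-5p to miR-181c-5p (0.32). MiR-125b-5p was nearest to miR-139-5p (0.39), miR-125a-3p to miR-674-3p (0.44), miR-99b-5p to miR-365-3p (0.61) and miR-125b-1-3p to miR-24-3p (0.75). These distances carry no test.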

How the data were processed

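Small RNA libraries of 3 brown and 3 subcutaneous fat samples were compared. Per the series' design text, the authors mapped reads to build mm10, scaled counts of each unique read to total usable reads and added 40 counts, with about 13800000 reads mapped per sample. The aligner, trimming and annotation: not given in the sources used here. For 1251 arms, the authors deposited normalized abundances on a log2 scale, with a floor of 3.32 (10 on the linear scale). This floor does not match the 40 added counts of the design text, so which steps made the table is unclear, and folds near the floor and shares of a library hold for these values only. Of the 100 highest ranks, 64.0% held the same value in all 6 libraries within 1e-06, so library totals carry no depth. Some arms were listed with identical values, such as miR-486-5p and miR-3107-5p, and each was counted in library totals and ranks. The value that this pair shares held a mean of 8.71% of a brown library and 1.17% of a subcutaneous one. It thus lowers the other shares more in brown fat. Abundant arms, miR-99b-5p and miR-125a-5p among them, thus carry the value of their rank, and their spread and SE follow rank steps. Read depth per library is unknown, and no counting interval is given.

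Arms were tested if their mean linear value above the floor reached 24.0 units, which left 269. The tissues were compared with limma 3.58.1 (R 4.3.3) on the log2 values with a mean-variance trend, and with Benjamini-Hochberg adjustment over all 269 at 0.05. Tested on 20 simulated sets of these 269 arms, the fit recovered 37.0% of changes of 1 log2 unit and 70.5% of changes of 2, and 4.80% of its calls were unchanged arms. These sets had 60 changed arms and independent normal noise, without a floor or rank ties. In the deposited values 69.1% of tested arms were called, so these rates need not hold there. Ratios within libraries were compared with exact two-sided permutation tests (Python 3.11.15, scipy 1.17.1, numpy 2.4.6, pandas 2.3.3; plots with matplotlib 3.10.9), adjusted over 17 comparisons. Mature sequences came from RefSeq (GRCm38.p6, the assembly also called mm10), which matched all 9 members, and hairpins from GENCODE M21 on GRCm38.

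The alternatives were other variance models, filters, pseudocounts and scalings, removal of each library's linear trend with the GC content of the mature sequence (229 arms, 85.1%), and leaving out libraries. Leaving out the 2 libraries richest in miR-133a-3p, the ratios with the GC trend removed, and all alternatives for the cluster neighbours and miR-351-5p were added after seeing the data. The arms named were set by rule: the 9 members, their let-7 cluster neighbours and opposite arms, arms that share a seed with a member, and for each member the tested arm outside the members with the smallest Euclidean distance over the 6 centred values. The members and lists were chosen with earlier results of these data known. Marker lists of brown fat, white fat, skeletal muscle, endothelium, leukocytes, stroma and smooth muscle, red cells, liver and nerve served as a check of the samples.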

Additional observations from a re-analysis of the deposited data

How the results depend on the processing

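No paired analysis was possible because the tissues share only the number 3 in the labels. Of 132 values of the 9 member differences under alternatives, 122 kept their direction and side of the threshold, 9 kept their direction only and 1 reversed. MiR-125b-5p (0.45) kept its size without the mean-variance trend but had a limma adjusted p of 0.079, and was 0.43 (0.121) with the libraries numbered 3 left out and 0.32 (0.113) with the 2 miR-133a-rich libraries left out; leaving out each library in turn gave 0.36 to 0.53. MiR-125a-3p was 1.30 (0.066) with the latter left out, 0.42 (0.291) with the GC trend removed, and 1.01 to 1.41 leaving out each library. MiR-99b-5p turned to -0.27 (0.394) with the GC trend removed; the cause was not tested. The counts of members called were 2 higher with the GC trend removed and 2 higher with the 2 miR-133a-rich libraries left out, and 3 lower with the filter 10 times as strict, under which 6 members were tested; leaving out each library gave 3 to 4 higher and 5 lower each time. Of the ratios, miR-125a-5p to miR-99b-5p turned to 0.12 without the 2 miR-133a-rich libraries. With the GC trend removed it was 1.51, miR-99a-5p to let-7c-5p -0.30, miR-100-5p to let-7a-5p -0.38, miR-125a-5p to miR-125a-3p 0.82 and miR-125b-1-3p to miR-125b-2-3p -0.76. MiR-351-5p turned from 0.73 to -0.56 with the GC trend removed. The other 144 ratio values and all 20 share values kept their direction. The shares were not computed with the GC trend removed. With median-of-ratios scaling all 9 members kept their direction and call, while calls over all miRNAs moved from 90 higher and 96 lower to 103 and 82. Depth is unknown, so the precision of the low 3p arms cannot be stated.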
